A study of Mus musculus with 47 samples.

Results

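Kidneys of NZO/HlLtJ male mice on 44% fat + fiber were compared with kidneys of males of the same strain on 10% fat + fiber. The members were taken by their titles: 4 libraries on 44% fat and 4 on 10% fat, 8 of the 47 libraries in the series. NZO/HlLtJ is an inbred, polygenic strain known for early obesity and, in males, for diabetes. All 47 libraries were labelled wild type with no treatment other than the diet, which began at 6 weeks of age, and the tissue was taken at 15 weeks. The series names the pair of diets control and high fat, high sugar, so fat and sugar differed together and cannot be told apart. The diet effect was also compared with that in 8 libraries of NZO/HlLtJ females, 8 of C57BL/6J males and 7 of CAST/EiJ males on the same diets and at the same ages, and C57BL/6J females and males on 10% fat defined sex-biased genes. All 47 libraries entered the model and its estimate of the spread; with the 8 NZO/HlLtJ male libraries alone 38 genes were called, and 8 with a term for the sample ID run described below. The tissue is labelled metanephros, and every segment marker examined was present, with Umod of the thick ascending limb at 1403 to 2217 CPM, which are counts scaled to the library total, and Lrp2 of the proximal tubule at 4473 to 6056 CPM. Whether each library came from its own animal is not stated in the labels, and the p-values therefore measure only the spread between libraries.

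The kidney cortex draws most of its energy from fatty acids, which proximal tubule cells oxidise in mitochondria and peroxisomes. The fatty acid receptor PPAR alpha switches on the genes of that oxidation, of ketone production and of fatty acid omega-hydroxylation, while SREBP-1c and SREBP-2 switch on fatty acid and cholesterol synthesis. The same cells make glucose and take it back from the filtrate, and in mice they carry a large set of genes that differ between males and females, in part through androgens.

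Of 18786 genes tested, 659 (3.51%) differed between the diets in NZO/HlLtJ males by edgeR's quasi-likelihood test at a Benjamini-Hochberg adjusted p under 0.05, 344 higher (1.83%) and 315 lower (1.68%) on 44% fat. Most differences were small: the median absolute log2 fold change of the 659 was 0.377, and 68 of them reached 1. At an unadjusted p under 0.05 there were 3404 genes (18.1%). Every library on 44% fat lay above every library on 10% fat for 608 genes (3.24%) and below for 668 (3.56%), and 195 of the 344 higher and 202 of the 315 lower genes were among these. On the first principal component, which held 39.7% of the variance of the 8 libraries, the 10% libraries lay between -15.6 and -4.26 and the 44% libraries between -0.192 and 12.8. The libraries at the ends were replicate 1 on 10% fat and replicates 1 and 4 on 44% fat. The number of called genes rested on those 3: it was 106 without replicate 1 on 44% fat, 197 without replicate 4 on 44% fat and 135 without replicate 1 on 10% fat. Without replicate 2 on 44% fat it was 1045, and without any of the other 4 libraries it lay between 642 and 903. Sample IDs of the members fall into runs beginning 77, 81 and 89, whose meaning the labels do not give, and only run 77 holds both diets, with 2 libraries each. The fold changes below are adjusted for the run by a term shared by all strains and both sexes. Outside run 77 the 44% libraries are in run 81 and the 10% libraries in run 89. In NZO/HlLtJ females these 2 runs are the other way round. A difference between them that is particular to NZO/HlLtJ was not tested and cannot be told apart from diet outside run 77. It would shift the diet effects of males and females in opposite directions. Of the genes named below, 75 were followed through the alternative fits. Of these 75, 72 were called, and later counts of named genes refer to these 75. All 72 kept their sign within run 77. The libraries of run 77 also entered the fit that called them, so the shared sign was no separate check. The test on 2 against 2 libraries in run 77 called 24 genes, of which 16 were among the 659. Of the named genes 20 passed the threshold whichever library was left out, and they are marked as such in what follows.

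**Figure D1:**
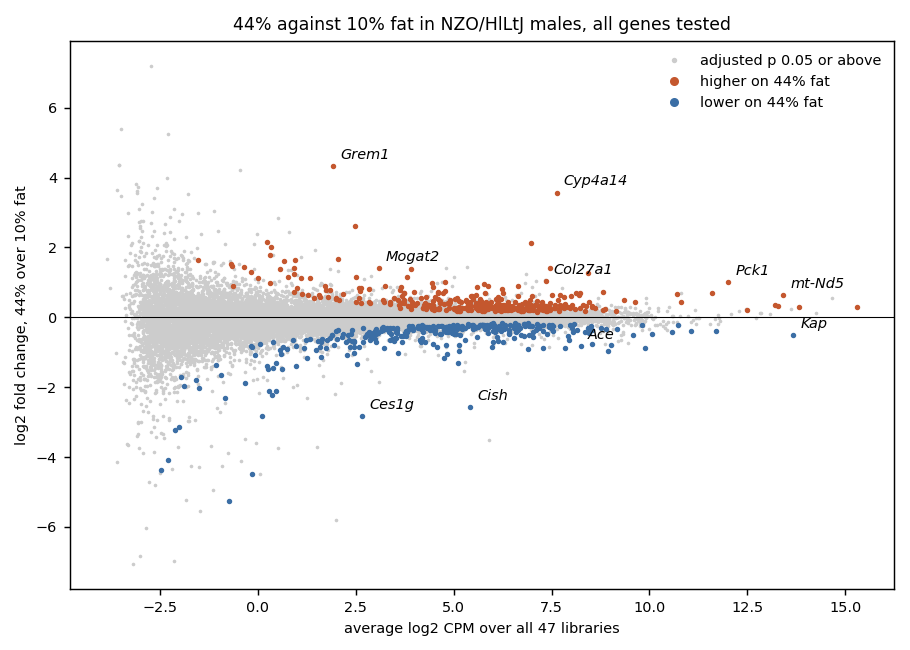
Each point is one of the 18786 genes tested. The horizontal axis is the average log2 CPM over all 47 libraries and the vertical axis the log2 fold change of 44% over 10% fat in NZO/HlLtJ males. Orange points are the 344 higher genes and blue points the 315 lower genes, most of them close to 0, with Grem1 at 4.32 and Ces1g at -2.82 among the labelled genes.

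Some genes of fatty acid oxidation and omega-hydroxylation rose on 44% fat. In a list of fatty acid oxidation enzymes and PPAR alpha targets with 37 tested genes, 7 rose and none fell, which is 18.9% against 3.51% of all genes, and the list's median log2 fold change was 0.22 against -0.0079 over all genes. Cyp4a14, a fatty acid omega-hydroxylase (chr4:115486200-115496142, GRCm38), measured 27.4, 3.45, 13.6 and 7.17 CPM in replicates 1 to 4 on 44% fat. On 10% fat it measured 0.760, 0.988, 1.41 and 1.12 CPM. The lowest 44% library was more than the highest 10% library, and the log2 fold change was 3.57 ± 0.64 (SE; adjusted p = 0.00144), past the threshold whichever library was left out. Cyp4a10, another omega-hydroxylase, rose by 1.28 ± 0.27 from 75.2 ± 15.6 to 177 ± 92.0 CPM (SD, n = 4 libraries each; adjusted p = 0.00773 by edgeR). It overlapped narrowly, and its adjusted p was 0.131 without replicate 1 on 44% fat and 0.0586 without replicate 1 on 10% fat. Smaller rises were those of Vnn1, the pantetheinase vanin-1 (0.82 ± 0.18), and Eci1, an isomerase of unsaturated fatty acid oxidation in mitochondria (0.48 ± 0.10), neither of which overlapped between diets. Both missed the threshold without replicate 1 on 44% fat, at adjusted p = 0.102 for Vnn1 and 0.120 for Eci1. Over the 8 fits that each left out 1 library, the list's count of higher genes ran from 1, without replicate 1 on 44% fat, to 15, without replicate 2 on 44% fat, and none fell in any. It was 4 without replicate 1 on 10% fat. The list's median ran from 0.11, without replicate 1 on 44% fat, to 0.27.

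Not every gene of the pathway moved. The medium-chain dehydrogenase Acadm read 641 to 797 CPM on 44% fat and 814 to 930 CPM on 10% fat, so that its libraries on 44% fat were all the lower, and it did not pass the test (log2 fold change -0.24, adjusted p = 0.267). It was chosen after its values were seen, as the only member of the list whose libraries separated downwards. Pdk4, which restrains pyruvate oxidation and was also chosen after its values were seen, ranged from 8.94 to 44.4 CPM on 44% fat and from 8.25 to 22.3 CPM on 10% fat. Its groups overlapped over most of their range (log2 fold change 0.66, adjusted p = 0.678). Among the 6 tested Cyp4a hydroxylases 3 rose: Cyp4a14, Cyp4a10 and Cyp4a31 (0.63 ± 0.15; 239.6 to 376 CPM against 168.1 to 207.8 CPM). Cyp4a31 missed the threshold without replicate 1 on 44% fat (adjusted p = 0.166) and without replicate 1 on 10% fat (adjusted p = 0.105). The male-type Cyp4a12a measured 298.6, 523.8, 170.1 and 392.2 CPM on 44% fat against 474.8 to 619.5 CPM on 10% fat, a log2 difference of -0.60 ± 0.31 that did not pass (adjusted p = 0.303). Cyp4a12b, also listed as male-high, lay the other way. It read 4.107 to 7.685 CPM on 44% fat against 3.015 to 3.932 CPM on 10% fat, without overlap, and was not called. Cyp4a10, Cyp4a31 and Cyp4a12a share 44.9%, 32.0% and 62.2% of their 31-base transcript words with other genes, so their reads may have been divided among the family and their values are uncertain.

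**Figure D2:**
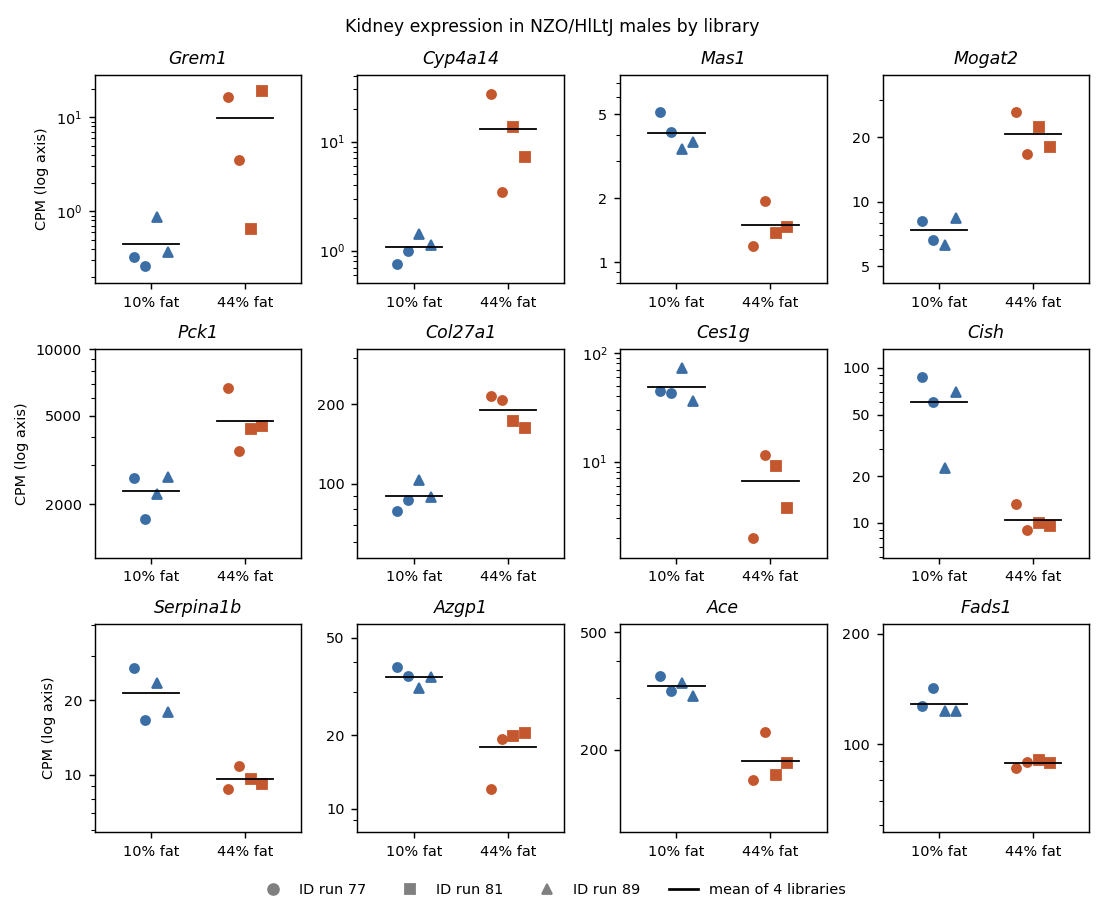
CPM of 12 genes in each of the 8 libraries, on log axes. Circles, squares and triangles are ID runs 77, 81 and 89, and lines are means of 4 libraries. For 11 of the 12 genes the diets do not overlap; in Grem1 replicate 3 on 44% fat, at 0.650 CPM, lies below replicate 3 on 10% fat, at 0.866 CPM.

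Some genes for making and storing triglyceride also rose. In a list of 30 such genes, 4 rose and none fell (13.3%), with a median log2 fold change of 0.10. Mogat2, a monoacylglycerol acyltransferase best known from the absorption of dietary fat (chr7:99219084-99238619), measured 26.2, 16.7, 22.4 and 18.05 CPM on 44% fat and 8.13, 6.61, 6.29 and 8.45 CPM on 10% fat. All 44% libraries were above all 10% libraries, and the log2 fold change was 1.41 ± 0.23 (adjusted p = 0.000605), past the threshold whichever library was left out. Plin2, the coat protein of lipid droplets, measured 14.7 to 22.3 CPM on 44% fat against 11.2 to 13.7 CPM on 10% fat. It rose by 0.60 ± 0.13 (adjusted p = 0.00752, and 0.0858 without replicate 1 on 44% fat). Lpin2, a phosphatidate phosphatase, rose by 0.50 ± 0.11, and Apob, the structural protein of secreted lipoproteins, by 0.74 ± 0.19. Lpin2 overlapped between the diets and missed the threshold without replicate 1 or 4 on 44% fat or replicate 1 on 10% fat (adjusted p from 0.0538 to 0.0904). Apob did not overlap, and missed it without replicate 1 on 44% fat or replicate 1 or 2 on 10% fat (adjusted p up to 0.179). The list's count of higher genes ran from 1 without replicate 1 on 44% fat to 6 without replicate 2 on 44% fat, and was 2 without replicate 1 on 10% fat. Its count of lower genes ran from 0 to 1 over the fits that left out a library. Since Plin2 is a textbook PPAR target, its promoter window from RefSeq (GRCm38.p6, chr4:86670010-86670309, minus strand, printed 5′ to 3′) is shown, with the best match to the PPAR direct repeat DR1 in capitals, the repeat being 2 copies of AGGTCA with 1 base between. The match lies on the other strand, has 2 mismatches and begins 225 bases before the start site.
Plin2: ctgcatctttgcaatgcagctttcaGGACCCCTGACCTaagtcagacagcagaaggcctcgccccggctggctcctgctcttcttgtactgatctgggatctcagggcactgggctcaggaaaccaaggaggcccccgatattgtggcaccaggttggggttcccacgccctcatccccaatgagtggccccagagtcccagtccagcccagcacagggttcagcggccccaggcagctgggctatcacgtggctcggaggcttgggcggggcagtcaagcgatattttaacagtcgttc
With at most 2 mismatches on either strand, 3.86% of all 32851 windows of this length hold the repeat, and 4 of the 32 windows found for 29 of the 38 genes of the PPAR list do (12.5%). Those 4 belong to Cd36, Fabp1, Slc25a20 and Creb3l3, none of which is among the 7 genes that rose.

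Genes of fatty acid and cholesterol synthesis that were called had all fallen. Of 22 genes of fatty acid synthesis and desaturation, 4 fell and none rose (18.2%), and the 4 were 3 desaturases and Srebf1. Fads1, the delta-5 desaturase (chr19:10182888-10196870), measured 86.1, 89.3, 90.4 and 88.9 CPM on 44% fat against 127.2, 141.9, 123.2 and 122.8 CPM on 10% fat. Its groups were far apart for their spread, and the log2 fold change was -0.55 ± 0.08 (adjusted p = 0.000190), past the threshold whichever library was left out. Its neighbour Fads2, the delta-6 desaturase, fell by 0.37 ± 0.06 (81.8 to 97.3 against 104.3 to 126.5 CPM; adjusted p = 0.000658), also in every such fit. Scd1, the delta-9 desaturase, measured 117.0, 212.0, 155.6 and 151.3 CPM on 44% fat and 263.2 to 383.6 CPM on 10% fat, a log2 fold change of -0.97 ± 0.22 without overlap (adjusted p = 0.0104, and 0.0904 without replicate 1 on 44% fat). Srebf1, which encodes SREBP-1, fell by 0.79 ± 0.19, with 19.3 to 32.2 CPM against 38.6 to 50.5 CPM. It missed the threshold without replicate 1 or 4 on 44% fat or replicate 1 on 10% fat (adjusted p from 0.0552 to 0.134). The list's count of lower genes was 4 in the full set and ran from 2, without replicate 1 on 44% fat, to 5, without replicate 2 on 44% fat. Its count of higher genes ran from 0 to 1 over the fits that left out a library.

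Among 26 genes of cholesterol synthesis, uptake and efflux, 2 fell and none rose (7.69%), and the list's median was -0.17. Mvk, mevalonate kinase, did not overlap between the diets and fell by 0.41 ± 0.11, from 9.28 ± 0.597 to 7.14 ± 0.706 CPM (SD, n = 4 each; adjusted p = 0.0359 by edgeR). Mvk missed the threshold without replicates 1 or 4 on 44% fat or replicates 1 or 4 on 10% fat (adjusted p up to 0.193), and with the transcript-length trend described below removed (adjusted p = 0.0652). The list's count ran from 0 to 4, and was 0 without each of replicates 1 and 4 on 44% fat and replicate 1 on 10% fat.

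Genes of glucose production and transport that were called had all risen. Of 21 genes in that list 4 rose and none fell (19.0%), with a median of 0.084. With a library left out 3 or 4 rose, 1 fell in the fit without replicate 3 on 44% fat, and the median ran from 0.014, without replicate 2 on 10% fat, to 0.19, without replicate 1 on 10% fat. Pck1, the cytosolic phosphoenolpyruvate carboxykinase that commits carbon to gluconeogenesis (chr2:173153048-173159273), measured 6668, 3458, 4377 and 4517 CPM on 44% fat. On 10% fat it measured 2618, 1721, 2224 and 2643 CPM, all below the lowest 44% library. The log2 fold change was 1.01 ± 0.17 (adjusted p = 0.000899), past the threshold whichever library was left out, with 0.71 as the lowest of those values, without replicate 1 on 44% fat. Slc5a10, a sodium-coupled transporter of mannose and fructose, rose by 0.70 ± 0.14, with 222.9 to 305.3 CPM against 125.5 to 232.3 CPM. Slc2a2, the basolateral glucose transporter GLUT2, measured 305.2, 305.3, 302.9 and 323.5 CPM on 44% fat and 181.4 to 230.3 CPM on 10% fat, a rise of 0.57 ± 0.12 (adjusted p = 0.00624). Slc5a10 and Slc2a2 both passed whichever library was left out; the first overlapped between diets through replicate 4 on 10% fat, the second did not. Ppargc1a, the coactivator of gluconeogenic and mitochondrial genes, rose by 0.38 ± 0.11 with overlapping groups (76.5 to 134.4 against 81.7 to 93.3 CPM; adjusted p = 0.0371). It missed the threshold without replicates 1 or 4 on 44% fat or replicates 1 or 3 on 10% fat (adjusted p up to 0.291) and with the length trend removed (adjusted p = 0.0968). Of 15 fructose and glucose-sensing genes 1 rose (6.67%): Pklr, the pyruvate kinase of liver and proximal tubule, by 0.52 ± 0.15 without overlap (36.7 to 45.7 against 24.7 to 34.02 CPM). Its call was near the threshold (adjusted p = 0.0439) and held in 1 of the 8 fits that left out a library, with adjusted p up to 0.132 in the other 7.

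Cish and Socs2, feedback inhibitors of growth hormone signalling, fell on 44% fat. Growth hormone acts through its receptor and STAT5, which induces Cish and Socs2, and their proteins then damp the receptor. Cish (chr9:107296026-107302784) measured 13.3, 8.92, 9.90 and 9.47 CPM on 44% fat against 88.0, 60.6, 22.7 and 69.6 CPM on 10% fat. The groups did not overlap, with replicate 3 on 10% fat the nearest, and the log2 fold change was -2.57 ± 0.49 (adjusted p = 0.00283), past the threshold whichever library was left out. Socs2 measured 6.62, 11.3, 7.56 and 5.36 CPM on 44% fat and 14.5, 19.7, 16.7 and 19.1 CPM on 10% fat, a log2 fold change of -1.15 ± 0.32 without overlap (adjusted p = 0.0371). Its call was lost without replicates 1 or 4 on 44% fat or without any one of the 4 libraries on 10% fat (adjusted p up to 0.167). Upstream members did not pass: the receptor Ghr read 837 to 1034 CPM against 956 to 1095 CPM (log2 fold change -0.15, adjusted p = 0.292), and Stat5b 48.5 to 62.1 against 45.7 to 56.3 CPM (0.078, adjusted p = 0.631). Both were chosen for their place in the pathway after their values were seen. Prlr, the prolactin receptor, was the 1 gene of the list below with every 44% library above every 10% library. It read 5.32 to 18.8 against 3.675 to 5.26 CPM and was not called. In the list of 25 genes of insulin and growth hormone signalling, Cish and Socs2 were the 2 that fell and 1 rose (12% called; median 0.058), while the feedback inhibitors Socs1 (log2 fold change -0.079, adjusted p = 0.972) and Socs3 (-0.20, adjusted p = 0.803) did not pass. The 1 that rose was Insr, the insulin receptor, by 0.27 ± 0.07 (160.6 to 191.3 against 142.7 to 161.7 CPM; adjusted p = 0.0367). Insr overlapped narrowly, missed the threshold without replicates 1, 3 or 4 on 44% fat or replicates 1 or 3 on 10% fat (adjusted p up to 0.158), and missed it with the length trend removed (adjusted p = 0.225).

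Because STAT5 binds TTCNNNGAA, the promoter window of Cish from RefSeq (GRCm38.p6, chr9:107296409-107296708, plus strand, printed 5′ to 3′) is shown with each match to those letters in capitals.
Cish: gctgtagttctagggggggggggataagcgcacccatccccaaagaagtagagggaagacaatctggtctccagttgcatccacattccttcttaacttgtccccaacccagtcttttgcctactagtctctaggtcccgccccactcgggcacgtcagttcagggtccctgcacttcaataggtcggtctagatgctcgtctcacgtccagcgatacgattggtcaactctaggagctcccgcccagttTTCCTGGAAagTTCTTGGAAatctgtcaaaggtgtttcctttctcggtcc
The window holds 2 matches 11 bases apart, TTCCTGGAA beginning at the annotated start site and TTCTTGGAA after it, and the letters read the same on both strands. At least 1 match is found in 8.30% of all 32851 windows of this length.

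Grem1 had the highest log2 fold change of the named genes. It encodes gremlin-1, a secreted antagonist of bone morphogenetic proteins (chr2:113746164-113758646). Replicates 1 to 4 measured 16.5, 3.55, 0.650 and 19.1 CPM on 44% fat, against 0.322, 0.259, 0.866 and 0.365 CPM on 10% fat. Replicates 1, 2 and 4 on 44% fat were far above the 10% libraries and replicate 3 was not, so the groups overlapped. The log2 fold change was 4.32 ± 0.75 (adjusted p = 0.000996) and ran from 3.47 to 5.01 over the fits that left out a library, all past the threshold. Pappa, a protease that frees insulin-like growth factors from their binding proteins, was also highest in replicates 1 and 4 on 44% fat: 25.2, 14.1, 7.51 and 35.4 CPM against 4.35, 9.64, 10.4 and 6.66 CPM. The rise was 1.38 ± 0.30 (adjusted p = 0.00891), lost without replicate 1 or 4 on 44% fat or replicate 1 on 10% fat (adjusted p from 0.0658 to 0.0772). Its relative Pappa2 went the other way, from 4.15 ± 0.811 to 1.93 ± 0.767 CPM (SD, n = 4 each), a log2 fold change of -1.07 ± 0.23 without overlap (adjusted p = 0.00755 by edgeR, and 0.0858 without replicate 1 on 44% fat).

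Of 39 tested genes of collagen and matrix, Grem1 among them, 3 rose and 1 fell (10.3%; median 0.055). Col27a1, a fibrillar collagen gene first known from cartilage (chr4:63214004-63334991), measured 215.0, 207.8, 172.0 and 161.9 CPM on 44% fat against 78.7, 87.1, 103.3 and 89.1 CPM on 10% fat. No library overlapped, and the rise of 1.04 ± 0.16 (adjusted p = 0.000516) passed whichever library was left out. Col6a3, a chain of the microfibrillar collagen VI, rose by 0.60 ± 0.15 and Col5a2, a chain of collagen V, fell by 0.69 ± 0.15, neither with overlap. Col6a3 missed the threshold without replicates 1 or 4 on 44% fat or replicate 1 on 10% fat (adjusted p from 0.0555 to 0.110), and Col5a2 without replicate 1 on 44% fat (adjusted p = 0.0864). The list's higher count ran from 2 to 4 over those fits, and was 2 without replicate 1 or 4 on 44% fat or replicate 1 on 10% fat.

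Ces1g had the lowest log2 fold change of the named genes. It encodes a carboxylesterase that hydrolyses esters of lipids and drugs (chr8:93302369-93337308), and it measured 1.96, 11.5, 9.10 and 3.71 CPM on 44% fat against 45.0, 42.6, 71.9 and 35.9 CPM on 10% fat. The groups were well apart, with a log2 fold change of -2.82 ± 0.42 (adjusted p = 0.000321) that passed whichever library was left out. Azgp1, zinc-alpha-2-glycoprotein, a lipid-mobilising factor, measured 12.04, 19.4, 19.8 and 20.5 CPM on 44% fat against 31.2 to 38.0 CPM on 10% fat (-1.04 ± 0.18; adjusted p = 0.000865, past the threshold in all 8 fits that left out a library). The alpha-1-antitrypsin genes that fell were 3: Serpina1b by 1.32 ± 0.24, Serpina1a by 1.02 ± 0.27 and Serpina1d by 0.98 ± 0.22. Serpina1b, at 8.77 to 10.8 CPM against 16.7 to 27.0 CPM, passed in every such fit. Serpina1d was lost without replicate 1 on 44% fat (adjusted p = 0.0583), and Serpina1a, the only one to overlap, without replicates 1 or 4 on 44% fat or replicates 1 or 3 on 10% fat (adjusted p up to 0.156). The 3 share 44.7% to 65.2% of their 31-base words with another gene of the family, so how the fall divides among them is uncertain.

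Ace, which cleaves angiotensin I to angiotensin II and lies on the proximal tubule brush border and on endothelium (chr11:105967945-105989964), shared the smallest adjusted p of all genes. Its 4 libraries on 44% fat measured 157.8, 229.7, 164.4 and 179.9 CPM, and the 4 on 10% fat 355.9, 317.6, 337.8 and 303.6 CPM. The diets were clearly apart, with a log2 fold change of -0.82 ± 0.11 (adjusted p = 3.49e-05) that passed whichever library was left out. Mas1, the receptor for angiotensin 1-7, measured 1.20, 1.94, 1.38 and 1.46 CPM against 5.13, 4.12, 3.44 and 3.70 CPM (-1.48 ± 0.32, no overlap; adjusted p = 0.00708, and 0.0645 without replicate 1 on 44% fat). These were the only 2 calls among 13 tested genes of the renin-angiotensin system (15.4%; median 0.068). Renin itself (Ren1) and the angiotensin II receptor Agtr1a, named after their values were seen, gave overlapping ranges of 37.9 to 44.2 against 38.9 to 56.5 CPM and 41.0 to 44.0 against 40.2 to 46.0 CPM. The gene that tied with Ace was Cadps2, a regulator of vesicle secretion, chosen after its value was seen: 35.8, 24.0, 26.2 and 29.0 CPM against 16.9, 16.7, 16.1 and 19.1 CPM. It rose by 0.76 ± 0.10 (adjusted p = 3.49e-05) without overlap and passed whichever library was left out.

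Segment markers moved in part, and in bulk tissue fewer cells of a type and less RNA per cell cannot be told apart. Of 24 proximal tubule genes 2 rose and 2 fell (16.7%; median 0.029). Miox, which opens the inositol ring, fell by 0.47 ± 0.09, with 648.4 to 753.5 CPM against 758.6 to 1071 CPM. Slc4a4, the basolateral sodium bicarbonate cotransporter, rose by 0.43 ± 0.08, with 1875 to 2402 CPM against 1475 to 1800 CPM. Neither overlapped, and both passed whichever library was left out (adjusted p = 0.00114 each). Slc9a3, the apical sodium-proton exchanger, rose by 0.34 ± 0.07 with overlap (adjusted p = 0.0744 without replicate 1 on 10% fat). Keg1 fell by 0.43 ± 0.13 without overlap, just past the threshold (adjusted p = 0.0495), and passed in 1 of the 8 fits that left out a library (adjusted p up to 0.190 in the other 7). Of 16 thick ascending limb genes 2 fell (12.5%; median -0.16). Umod, the uromodulin gene, measured 1403, 1738, 1796 and 1725 CPM on 44% fat and 2217, 2129, 1952 and 2116 CPM on 10% fat, without overlap. Its fall of 0.38 ± 0.07 (adjusted p = 0.00268) passed whichever library was left out. Cldn10, a paracellular cation channel, fell by 0.35 ± 0.08 with slight overlap and missed the threshold without replicates 1 or 4 on 44% fat or replicate 1 on 10% fat (adjusted p from 0.0538 to 0.147).

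Further along the nephron, 3 of 17 principal cell genes rose (17.6%; median 0.054). Aqp2, the vasopressin-regulated water channel, measured 115.2, 89.04, 53.6 and 152.3 CPM on 44% fat against 47.5 to 73.1 CPM on 10% fat. Replicate 3 on 44% fat lay among the 10% libraries, and the rise of 0.88 ± 0.22 (adjusted p = 0.0242) was lost without replicates 1 or 4 on 44% fat or replicates 1 or 4 on 10% fat (adjusted p up to 0.149). Aqp3, its basolateral counterpart, rose by 0.47 ± 0.11 and was lost without replicate 4 on 44% fat (adjusted p = 0.0765). Scnn1g, the gamma subunit of the epithelial sodium channel, measured 26.7 to 38.9 CPM against 23.7 to 24.9 CPM. It rose by 0.45 ± 0.11 and was lost without replicates 1 or 4 on 44% fat or replicate 1 on 10% fat (adjusted p from 0.0781 to 0.113). The principal cell count was 0 without replicate 4 on 44% fat and 1 without replicate 1 on either diet. Calb1, a calcium buffer and the 1 of 16 distal convoluted tubule genes called (6.25%), rose by 0.62 ± 0.15 without overlap (302.2 to 419.9 against 193.9 to 253.0 CPM). It was lost without replicates 1 or 4 on 44% fat or replicate 1 on 10% fat (adjusted p from 0.0508 to 0.0723). Among 17 intercalated cell genes 3 were called (17.6%), while the median was -0.13 and 4 were positive. Car2 (0.34 ± 0.09) and Atp6v0a4 (0.31 ± 0.08) rose and Atp6v1g3 (-0.35 ± 0.09) fell, although the latter 2 both encode proton pump subunits. All 3 overlapped and were lost without replicate 1 on 44% fat (adjusted p = 0.230, 0.153 and 0.136), and each was lost without 2 or more of the other libraries. The podocyte genes Clic5 (0.29 ± 0.07) and Cd2ap (0.20 ± 0.06) rose, 2 of 16 (12.5%); both were lost without replicate 4 on 44% fat or replicate 1 on 10% fat (adjusted p up to 0.263), and with the length trend removed (adjusted p = 0.0678 and 0.103). Clic5 was also lost without replicate 2 on 44% fat, and Cd2ap without replicates 1 or 3 on 44% fat or replicate 4 on 10% fat. None of 15 endothelial genes was called by edgeR (3 at an unadjusted p under 0.05; 0 by DESeq2, by limma-voom and by limma on the transformed values).

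Transcripts of the mitochondrial genome made up more of the libraries on 44% fat. Their share of counts lay between 12.2% and 14.3% in the 44% libraries and between 10.7% and 11.95% in the 10% libraries, with no overlap (exact permutation test, two-sided, p = 0.0286, the smallest that 4 against 4 libraries can give; 0.0667 adjusted over 7 measures). Of 13 mitochondrial genes of oxidative phosphorylation 6 rose and none fell (46.2%; median 0.30), while of 37 nuclear genes of oxidative phosphorylation 1 fell and none rose (2.70%; median -0.049). mt-Nd5, a subunit of complex I, measured 12939, 9990, 11372 and 12128 CPM on 44% fat against 6130, 7851, 8967 and 7303 CPM on 10% fat, a rise of 0.64 ± 0.11 without overlap (adjusted p = 0.000899), past the threshold whichever library was left out. mt-Nd6 rose by 0.67 ± 0.16, mt-Nd1 by 0.32 ± 0.08 and mt-Co1, a subunit of complex IV, by 0.28 ± 0.06, none with overlap. Each missed the threshold without replicate 1 on 44% fat (adjusted p = 0.0904, 0.134 and 0.112), mt-Nd1 and mt-Co1 also without replicate 4 on 44% fat, and mt-Nd6 and mt-Nd1 without replicate 1 on 10% fat. The count was 1 without replicate 1 on 44% fat, 2 without replicate 4 on 44% fat or replicate 1 on 10% fat, 4 without replicate 4 on 10% fat, and 6 or 7 in the other fits. mt-Co1 shares 63.9% of its 31-base words with a nuclear copy, so its value is uncertain. The nuclear gene that fell was Ndufa1, a short complex I subunit (-0.28 ± 0.08; adjusted p = 0.0491), which passed in 1 of the 8 fits that left out a library (adjusted p up to 0.201) and not with the length trend removed (adjusted p = 0.2255). With the mitochondrial genes left out of the library totals, 643 genes were called, 338 higher and 305 lower.

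The summed level of 7 erythroid markers was 746.5 to 1141 CPM on 44% fat and 1337 to 1751 CPM on 10% fat (exact permutation p = 0.0286; 0.0667 adjusted over the 7 measures). Of the 7 erythroid genes 5 had every 44% library below every 10% library, and none was called by edgeR (5 at an unadjusted p under 0.05; 0 by DESeq2, 1 by limma-voom, 0 by limma on the authors' transformed values). One of those 5, Slc4a1, is also an intercalated cell gene (33.5 to 37.1 against 38.6 to 45.2 CPM). These permutation tests take no account of the ID run. The summed markers of adipose tissue (32.8 to 60.4 against 32.6 to 41.9 CPM), adrenal gland (2.47 to 3.22 against 2.56 to 3.26 CPM), urothelium (6.80 to 10.1 against 8.27 to 10.6 CPM) and smooth muscle with pericytes (127.0 to 164.6 against 109.3 to 157.8 CPM) overlapped. The adipose sum was mostly Fabp4 (28.5 to 57.3 against 30.6 to 35.7 CPM) and the adrenal sum mostly Star (2.00 to 2.46 against 2.06 to 2.87 CPM). Of 9 listed adrenal genes 2 were tested, so these sums rest on few genes. The part of the summed markers in the gene results was not tested.

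Among 26 genes of glutathione metabolism and NRF2 targets, 2 rose and 2 fell (15.4%; median 0.028). Gsta2, an alpha-class glutathione transferase, measured 26.4, 10.5, 15.2 and 13.7 CPM on 44% fat against 5.17 to 6.66 CPM on 10% fat, a rise of 1.41 ± 0.31 without overlap (adjusted p = 0.00887, and 0.113 without replicate 1 on 44% fat). It shares 60.7% of its 31-base words with Gsta1, so its value is uncertain. Ephx1, microsomal epoxide hydrolase, rose by 0.56 ± 0.12 with overlap (adjusted p = 0.0847 without replicate 1 on 44% fat). Sod1, the cytosolic superoxide dismutase, fell by 0.36 ± 0.09 and Gstp1 by 0.33 ± 0.09, both with some overlap and both lost without replicates 1 or 4 on 44% fat or replicate 1 on 10% fat (adjusted p up to 0.201). Gstp1 was also lost without replicate 3 on 44% fat or replicate 4 on 10% fat and with the length trend removed (adjusted p = 0.105), and shares 38.5% of its words with Gstp2.

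Lists of injury and repair and of immune cells gave at most 1 call each, with shares near that of all genes (3.51%) or at 0. Of 30 genes of tubular injury and repair 1 rose (3.33%): Gdf15, a stress-induced circulating cytokine, at 6.57, 4.11, 2.42 and 7.23 CPM against 2.12 to 2.82 CPM. Its rise of 1.14 ± 0.31 overlapped through replicate 3 on 44% fat (adjusted p = 0.0329) and was lost without replicates 1 or 4 on 44% fat or replicates 1, 2 or 3 on 10% fat (adjusted p up to 0.169). The injury markers Havcr1 (KIM-1) and Lcn2 (NGAL), chosen after their values were seen, stayed at or under 3.56 CPM in every library. Havcr1 measured 0.960, 1.58, 3.56 and 1.27 CPM against 1.23 to 2.11 CPM. Lcn2 measured 2.15 to 2.79 CPM against 1.62 to 1.93 CPM, without overlap, but its log2 fold change of 0.53 ± 0.62 did not pass the fit over all groups (adjusted p = 0.703). No gene was called among 22 of T, B, plasma and natural killer cells, 18 of antigen presentation, 21 of the ER stress response, 18 of the circadian clock or 14 of phosphate, Klotho and vitamin D by edgeR (13 of these 93 at an unadjusted p under 0.05; 3 by DESeq2, 1 by limma-voom, 1 by limma on the transformed values). Single calls close to the threshold were Csf1r of 22 macrophage genes (-0.31 ± 0.09; adjusted p = 0.0488), Cfi of 19 complement genes (-0.66 ± 0.19; 0.0443) and Ifih1 of 24 interferon-response genes (0.31 ± 0.08; 0.0283). Each was lost in at least 3 of the 8 fits that left out a library (adjusted p up to 0.323), all 3 without replicate 1 on 10% fat. Ifih1 and Cfi were also lost with the length trend removed (adjusted p = 0.0791 and 0.0804).

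The median log2 fold change of 28 cell-cycle genes was 0.44, and 25 were positive, and 1 passed (3.57% against 3.51% of all genes). The median was 0.019 without replicate 1 on 44% fat and 0.38 to 0.67 without any of the other 7 libraries. That was Tyms, thymidylate synthase, which rose by 0.31 ± 0.09 without overlap (13.1 to 17.0 against 10.6 to 12.9 CPM; adjusted p = 0.0359) and was lost in 5 fits, without replicates 1 or 4 on 44% fat or replicates 1, 2 or 3 on 10% fat (adjusted p up to 0.258). Kif23, a kinesin of cytokinesis outside that list, measured 8.07, 2.35, 2.52 and 7.12 CPM against 1.54 to 2.94 CPM. Replicates 1 and 4 on 44% fat were again the high ones, and the rise of 1.17 ± 0.34 (adjusted p = 0.0454) was lost without either of them or without replicates 1, 2 or 3 on 10% fat (adjusted p up to 0.324). Folds among the 12 highest or lowest were also those of Cyp2c44, an arachidonic acid epoxygenase (1.16 ± 0.34), the transcript RP24-325H17.1 (1.67 ± 0.49), Mfsd2a, a transporter of lysophosphatidylcholine (-1.32 ± 0.37), and Car9, a carbonic anhydrase induced by hypoxia (-1.01 ± 0.21). Cyp2c44 and RP24-325H17.1 passed in 1 of the 8 fits that left out a library each, with adjusted p up to 0.167 and 0.182. Mfsd2a did not overlap between diets (12.1 to 31.4 against 33.0 to 72.5 CPM) but was lost without replicates 1, 3 or 4 on 44% fat or replicates 1 or 3 on 10% fat (adjusted p up to 0.191). Car9 did not overlap either (4.16 to 8.53 against 9.30 to 19.1 CPM) and was lost without replicate 1 on either diet (adjusted p = 0.0624 and 0.0547).

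**Figure D3:**
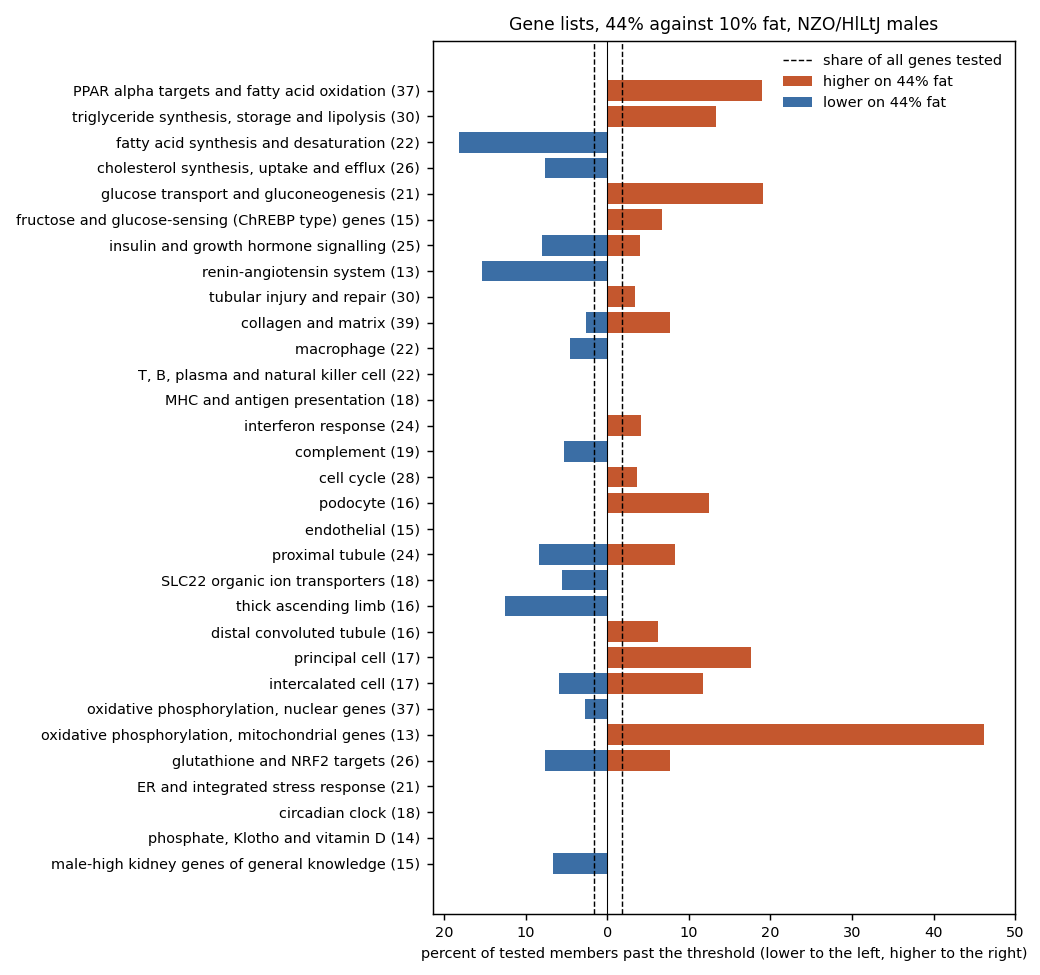
Share of each list's tested members (number in parentheses) that passed at an adjusted p under 0.05, lower genes in blue to the left and higher genes in orange to the right, for lists with at least 10 tested members. Dashed lines mark 1.83% and 1.68%, the shares of all genes that were higher and lower. The bar for mitochondrial genes of oxidative phosphorylation reaches 46.2%.

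Among male-biased kidney genes more fell than rose on 44% fat. The genes at least 1 log2 unit higher in C57BL/6J males than females on 10% fat, at an adjusted p under 0.05, numbered 480, and in NZO/HlLtJ males 36 of them fell and 2 rose (7.92% against 3.51% of all genes), with a median of -0.21. Of the 572 genes higher in C57BL/6J females, 13 rose and 12 fell (4.37%; median -0.037). Kap, an androgen-regulated protein of the proximal tubule (chr6:133849851-133853762), measured 17894, 21498, 15293 and 19758 CPM on 44% fat and 31169, 26152, 24287 and 23380 CPM on 10% fat. It did not overlap, and its fall of 0.52 ± 0.10 (adjusted p = 0.00329) passed whichever library was left out. It was the 1 call among 15 male-high kidney genes of general knowledge, whose median was -0.32, with 2 positive. Of 8 female-high kidney genes of general knowledge 1 rose and none fell (12.5%; median 0.17), the riser being Cyp4a14. The log2 difference of C57BL/6J females over males on 10% fat was 5.17 for Cyp4a14 and -2.74 for Ces1g. For Grem1 (0.92, adjusted p = 0.680 by edgeR) and Cish (0.085, adjusted p = 0.909 by edgeR) it did not pass. The count of male-biased genes that fell was 6 without replicate 1 on 44% fat, 13 without replicate 4 on 44% fat and 7 without replicate 1 on 10% fat. It was 63 without replicate 2 on 44% fat and 25 to 34 without any of the other 4 libraries, and the median stayed between -0.28 and -0.16. Slc22a19, an organic anion transporter and the 1 call among 18 SLC22 genes (5.56%), is higher in C57BL/6J females than males (by 1.12 on the log2 scale) and fell by 0.50 ± 0.13 (83.8 to 112 against 126.2 to 132.4 CPM). It was lost without replicates 1 or 4 on 44% fat or replicates 1, 3 or 4 on 10% fat (adjusted p up to 0.160).

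In the other groups fewer genes passed between the same diets: 28 in NZO/HlLtJ females (0.149%; 21 higher, 0.112%, and 7 lower, 0.0373%), 1 in C57BL/6J males (0.00532%, higher) and 109 in CAST/EiJ males (0.58%; 52 higher, 0.277%, and 57 lower, 0.303%). At an unadjusted p under 0.05 the shares were 9.68%, 5.34% and 12.3%. In NZO/HlLtJ 6 genes were called in both sexes, with the same sign. They were 6 of the 659 called in males, where 0.149% of all genes tested were called in females. They were also 6 of the 28 called in females, where 3.51% of all genes tested were called in males. Col5a2 fell, and Eno1, Sdcbp, Sectm1b, Tagln2 and Enpp6 rose, the last 5 named because the count is small. Those 5 are outside the 75 named genes counted above and were not followed through the alternative fits. A test of whether the diet effect differed between males and females of NZO/HlLtJ called 1 gene (0.00532%; 2097, or 11.2%, at an unadjusted p under 0.05), Ces1g. Outside run 77 the ID runs of the diets are swapped between these sexes. A run difference particular to NZO/HlLtJ therefore cannot be told apart from a sex difference in this contrast. In females Ces1g measured 1.97 ± 0.808 CPM on 44% fat and 0.782 ± 0.340 CPM on 10% fat (SD, n = 4 each), a log2 fold change of 1.26 ± 0.51 opposite to that of the males. The difference was -4.08 ± 0.69 (adjusted p = 0.0191 by edgeR), past the threshold whichever male library was left out but not with limma-voom (adjusted p = 0.0937) or with the NZO/HlLtJ samples of both sexes alone (adjusted p = 0.616), and DESeq2 gave it no adjusted p. Against C57BL/6J males no gene differed by edgeR (0%; 1521, or 8.1%, at an unadjusted p under 0.05), while DESeq2 gave 11, limma-voom 3 and limma on the authors' transformed values 1. The log2 fold changes of Cyp4a14 were 3.57, 0.34, 1.46 and 2.00 in NZO/HlLtJ males, NZO/HlLtJ females, C57BL/6J males and CAST/EiJ males and those of Cish -2.57, 0.61, -1.04 and -0.43. None of these differences from NZO/HlLtJ males passed: in the same order of groups the adjusted p was 0.217, 0.496 and 0.419 for Cyp4a14 and 0.217, 0.553 and 0.0930 for Cish.

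Against CAST/EiJ males the diet effect differed in 366 genes (1.95%), 231 with a higher (1.23%) and 135 with a lower (0.719%) log2 fold change in NZO/HlLtJ males, and 16.4% passed an unadjusted p of 0.05. Ace fell in NZO/HlLtJ males and measured 0.22 in CAST/EiJ males, a difference of -1.04 ± 0.16 (adjusted p = 0.000601). Azgp1 gave -1.04 against 0.55 (difference -1.59 ± 0.25, adjusted p = 0.00105), Serpina1b -1.32 against 0.53 (-1.85 ± 0.36, 0.00754) and Ces1g -2.82 against 1.48 (-4.30 ± 0.79, 0.00680). mt-Nd5 gave 0.64 against -0.31 (0.95 ± 0.16, 0.00160) and mt-Nd1 0.32 against -0.35 (0.67 ± 0.11, 0.00160). These 6 differences passed whichever NZO/HlLtJ male library was left out and with the length and GC trends described below removed. The number of genes was 100 without replicate 1 on 44% fat, 146 without replicate 4 on 44% fat, 97 without replicate 1 on 10% fat, and 345 to 535 without the others. With the trends in transcript length and GC content removed it was 75, of which 32 were higher and 43 lower.

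**Figure D4:**
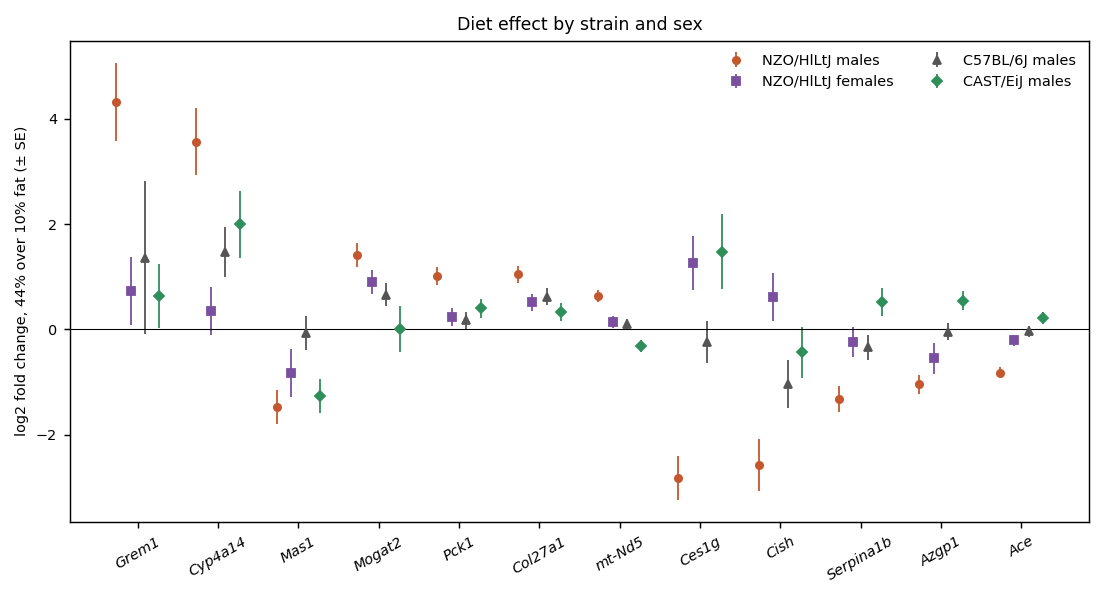
Log2 fold change of 44% over 10% fat, with its standard error, for 12 genes in NZO/HlLtJ males, NZO/HlLtJ females, C57BL/6J males and CAST/EiJ males. For Ces1g the point of NZO/HlLtJ males lies at -2.82 and those of NZO/HlLtJ females and CAST/EiJ males at 1.26 and 1.48. Ces1g was barely expressed in the latter groups. Its means on 44% and 10% fat were 1.97 and 0.782 CPM in NZO/HlLtJ females and 1.04 and 0.376 CPM in CAST/EiJ males.

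The fold changes also followed transcript length. Over 12700 genes with an average log2 CPM of at least 1, the Spearman correlation of the log2 fold change with transcript length was 0.36 in NZO/HlLtJ males, and -0.20 in NZO/HlLtJ females, 0.14 in C57BL/6J males and -0.12 in CAST/EiJ males, a description across genes of the same libraries. With the GC content of transcripts it was -0.26, -0.033, -0.14 and 0.39 in the same order, and that of single NZO/HlLtJ male libraries ran from -0.24 in replicate 4 on 44% fat to 0.35 in replicate 4 on 10% fat. The median transcript length was 5108 bases for called higher genes, 2380 bases for called lower genes and 3049 bases for all tested genes. Over 5 equal groups of genes, from the shortest to the longest transcripts, the median log2 fold change went from -0.097 to 0.090. The library that departed most was replicate 1 on 10% fat, whose deviation from the mean of the 8 libraries had a correlation of -0.53 with length, followed by replicates 3 and 4 on 44% fat at 0.27 and 0.26. With the length trend removed from each library, 449 genes were called, 223 higher and 226 lower, and 380 of them were among the 659. Of the 72 called genes among those followed through the alternative fits, 54 stayed past the threshold, including the 20 that passed whichever library was left out. The 18 that did not were RP24-325H17.1, Kif23, Mfsd2a, Serpina1a, Apob, Mvk, Ppargc1a, Insr, Col6a3, Clic5, Cd2ap, Keg1, Atp6v1g3, Ndufa1, Gstp1, Ifih1, Cfi and Tyms, with adjusted p-values from 0.0512 for RP24-325H17.1 to 0.2255 for Ndufa1. The folds of some of them hardly moved, such as RP24-325H17.1 (1.67 to 1.71), Kif23 (1.17 to 1.16), Mfsd2a (-1.32 to -1.26) and Keg1 (-0.43 to -0.43), while those of Insr (0.27 to 0.16) and Ndufa1 (-0.28 to -0.12) came closer to 0. With the length and GC trends removed together 55 of the 72 passed: RP24-325H17.1, Col6a3, Keg1 and Atp6v1g3 passed again, and Calb1 (adjusted p = 0.108), Csf1r (0.0656) and Cyp2c44 (0.0501) did not pass.

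**Figure D5:**
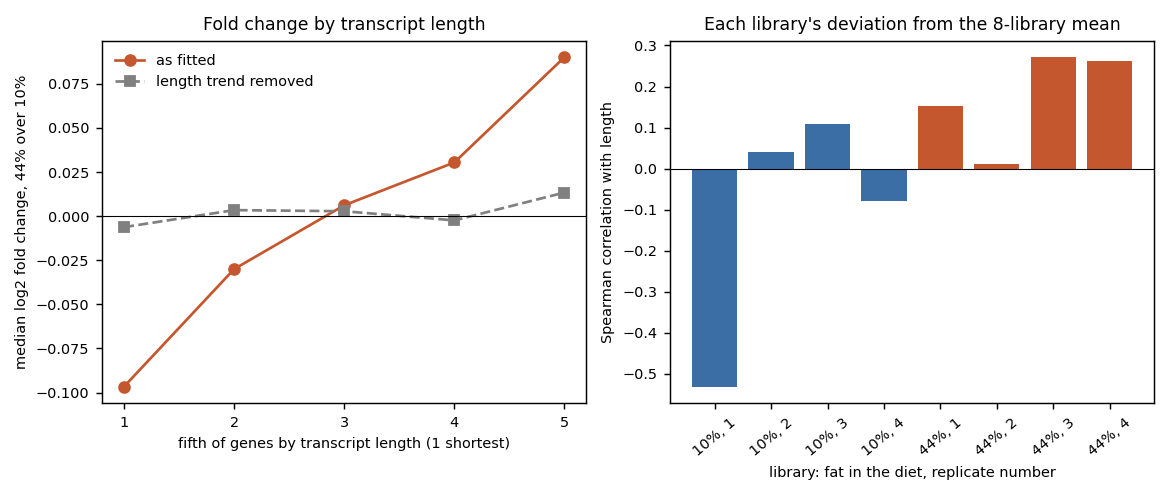
Left, the median log2 fold change of 44% over 10% fat in NZO/HlLtJ males in 5 equal groups of genes from the shortest (1) to the longest (5) transcripts, as fitted and with the length trend removed. Right, the Spearman correlation, across 12700 genes, of each library's deviation from the 8-library mean with transcript length; replicate 1 on 10% fat stands at -0.53.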

How the data were processed

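Kidney poly(A) RNA was sequenced as 100-base read pairs, per the labels' protocols. The authors deposited estimated counts per gene (25.9% of them not whole numbers), a variance-stabilized matrix on a log2-like scale, and a gene annotation whose other values are coordinates on GRCm38, the build in the submitters' processing notes, which also name DESeq2; the aligner and counter are not given in the sources used here. Total counts were 39.4 M to 51.5 M (M, mega) in the 8 NZO/HlLtJ male libraries (median 44.3 M) and 34.4 M to 58.4 M in all 47. Counts were rounded to whole numbers.

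Of 22474 genes 18786 passed edgeR's expression filter. One edgeR 4.0.16 quasi-likelihood model (R 4.3.3, TMM scaling) was fitted to all 47 libraries with a mean per group and a term for the ID run, leaving 33 residual degrees of freedom, and p-values were adjusted by Benjamini-Hochberg over all genes. CPM values use TMM-scaled totals, and standard errors were derived from the F statistic. Alternatives were DESeq2 1.42.0, limma 3.58.1 on voom values and on the deposited log2-scale matrix, other scalings, filters, sample sets, left-out libraries, and removal of transcript length and GC trends. Genes are named as the 12 highest and 12 lowest called fold changes among genes averaging 1 or more in log2 CPM and 10 or more counts in each diet, without predicted names, up to 4 per list by p-value, and the 5 highest and lowest differences of diet effects; some genes that meet this rule are not reported here. The comparison, members and lists were chosen with earlier results of these data known. No 2 of the 8 libraries differed by as little as sampling noise (chi-square per gene 16.2 to 111.96, with 1 for noise alone). The test was checked on simulated counts. Promoter windows are from RefSeq tables (GRCm38.p6).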

Additional observations from a re-analysis of the deposited data

Results flagged for a closer look

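In 6 of the 150 groups of 4 libraries examined for the named genes, 1 library stood apart from the other 3 by more than Dixon's 95% critical value, and chance does so in about 1 in 20 groups. They were Azgp1 at 12.04 CPM and Car9 at 4.16 CPM, both in replicate 1 on 44% fat, Slc2a2 at 323 CPM in replicate 4 on 44% fat, Mvk at 8.38 CPM and Havcr1 at 1.23 CPM, both in replicate 3 on 10% fat, and Scnn1g at 23.7 CPM in replicate 4 on 10% fat.

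The diet effect of 16 named genes differed between NZO/HlLtJ males and CAST/EiJ males by edgeR's quasi-likelihood test with Benjamini-Hochberg adjustment, where 1.95% of all genes did. Each value below is the log2 fold change in NZO/HlLtJ males minus that in CAST/EiJ males. The 7 that passed whichever NZO/HlLtJ male library was left out were Ces1g (-4.30), Serpina1b (-1.85), Azgp1 (-1.59), Ace (-1.04), Fads2 (-0.42), mt-Nd5 (0.95) and mt-Nd1 (0.67). Fads2 alone of these 7 missed the threshold with the length and GC trends removed (adjusted p = 0.0836). The other 9 each missed it without at least 2 of the 8 libraries, and all 9 did so without replicate 1 on 44% fat: Grem1 (3.68), Serpina1d (-1.43), Pappa2 (-1.37), mt-Nd6 (0.92), Slc2a2 (0.65), Gstp1 (-0.56), Csf1r (-0.54), Umod (-0.41) and mt-Co1 (0.39). With the length and GC trends removed Pappa2 was the 1 of these 9 that passed (adjusted p = 0.0267). Ces1g was also the gene whose diet effect differed between NZO/HlLtJ males and females, by -4.08 ± 0.69 (adjusted p = 0.0191).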

How the results depend on the processing

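The 659 genes called between the diets became 1053 with DESeq2 (557 higher, 496 lower), 109 with NZO/HlLtJ samples of both sexes alone, 38 with the 8 males alone and no run term, 8 with the males alone and the run term, and 24 in run 77 alone, and ran from 106 to 1045 over the fits that left out 1 library. Smaller fits had fewer residual degrees of freedom to estimate the spread. For the difference from NZO/HlLtJ females, 1 gene became 29 with DESeq2, 0 with limma-voom, 2 with limma on the transformed values and 0 with both sexes alone, and ran from 1 to 5 with a library left out. For the difference from C57BL/6J males, 0 became 11 with DESeq2, 3 with limma-voom, 1 with limma on the transformed values and 1 without the run term, and ran from 0 to 17. For the difference from CAST/EiJ males, 366 became 746 with DESeq2, 214 with the length trend removed and 75 with the length and GC trends removed, and ran from 97 to 535. Its share of higher genes was 63.1%, and 42.7% with both trends removed. Of 1571 values of single named genes under these alternatives 1089 kept their side of the threshold, 481 no longer passed and 1 changed sign. Havcr1 ran from -0.74 to 0.091 with a library left out. The summed adrenal markers, -0.0199 CPM apart, ran from -0.162 to 0.128 CPM with a library left out, above 0 at 0.00125, 0.0889 and 0.128 CPM. The cause of these changes was not tested. The fits that removed trends or left genes or libraries out show only how the counts moved. The mitochondrial, length and GC alternatives and the males-alone fit with the run term were chosen after seeing the data. No paired analysis was possible because replicate numbers only follow accession order. On simulated counts, the test recovered 78% of genes changed 1.5-fold, 88% at 2-fold and 98% at 3-fold, and 38% at the smallest change simulated.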
